A study of Mus musculus with 15 samples.

Results

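A list of 10 genes that mark resting microglia was measured in whole 5xFAD forebrain and in sorted microglia after deletion of the autophagy gene Atg7 in microglia. They are Tmem119, Fcrls, Selplg, Adgrg1, Slc2a5, Olfml3, Sparc, Crybb1, Ltc4s and Rasal3, taken as a named list of homeostatic microglia genes. The list was chosen with earlier results of these data known. All 10 were found among the 54532 genes of the bulk table and among the 32285 genes of the single-cell matrices, and all 10 passed the filter on low counts in bulk, which left 16956 genes to test. Proteins at the cell surface (TMEM119, FCRLS, PSGL-1, ADGRG1 and GLUT5) or secreted (OLFML3 and SPARC) are the products of 7 of them. The other 3, Crybb1, Ltc4s and Rasal3, encode proteins that work inside the cell, so the description "surface and secreted" does not cover them.

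Microglia are the resident macrophages of the brain, and at rest they carry a set of transcripts that sets them apart from blood-derived macrophages. This homeostatic set depends on TGF-beta signalling and on transcription factors such as PU.1, SALL1 and MEF2C, and microglia around amyloid plaques are known to carry less of it. Autophagy, which needs the E1-like enzyme ATG7, delivers cytoplasm and organelles to the lysosome for breakdown.

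Bulk RNA was read from forebrain without cerebellum of 7 conditional knockout (cKO) samples, genotype Cx3cr1CreER;ATG7FF;5xFAD, and 6 control samples, genotype ATG7FF; 5xFAD. Single-cell RNA came from CD11b-high, CD45-low sorted microglia of mice without the 5xFAD transgenes, with 1 library pooled from 4 cKO forebrains (ATG7FF;Cx3cr1CreER) and 1 from 3 control forebrains (ATG7FF). Every mouse was C57BL/6, had floxed Atg7 and was given 1.5 mg of tamoxifen at an age of 2 months, and tissue was taken at 8 months, 6 months after that dose. CreER is a tamoxifen-activated recombinase inserted at Cx3cr1, present in cKO mice and absent from controls, and Cx3cr1 is also used by macrophages at the borders of the brain. The 5xFAD mouse carries human transgenes with familial Alzheimer's disease mutations and deposits amyloid, and no bulk library without these transgenes was analysed here. The labels do not state that each bulk library is 1 mouse, and the p-values below speak for the spread among these libraries.

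Bulk libraries held 16658707 to 22355512 counts. Atg7 itself ran from 22.8 to 25.8 CPM (read counts scaled to library size, here with TMM factors) with a median of 24.9 in cKO forebrain, against 21.2 to 27.4 with a median of 24.1 in control forebrain, and cells without Cre make up most of this tissue, so the value does not check the deletion. In sorted microglia Atg7 stood at 17.3 CPM in the cKO library and 15.8 CPM in the control library, counted from tags at the 3' end of the transcript, which check the deletion no better. The cKO single-cell library was deeper, at a median of 4836.5 UMIs (unique molecular identifiers, 1 per captured RNA molecule) per microglia-like cell against 1391.5 in the control library. Both single-cell libraries shared 22 cell barcodes.

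RefSeq promoter windows, 250 bases before to 50 bases after the start of transcription on GRCm38.p6, were at hand for 8 of the 10 genes, all but Tmem119 and Selplg. Those of Fcrls, Crybb1 and Rasal3 are printed because these genes fell in cKO forebrain, and that of Ltc4s because it is the gene with a positive change there. Capitals mark GAGGAA or AGGAAGT, letters at the core of PU.1 and other ETS-factor motifs, searched on both strands, so that TTCCTC and ACTTCCT are the same letters read from the other strand. Fcrls lies at chr3:87263475-87263774 (minus strand), Crybb1 at chr5:112255570-112255869 (plus strand), Rasal3 at chr17:32403533-32403832 (minus strand) and Ltc4s at chr11:50238483-50238782 (minus strand).
Fcrls: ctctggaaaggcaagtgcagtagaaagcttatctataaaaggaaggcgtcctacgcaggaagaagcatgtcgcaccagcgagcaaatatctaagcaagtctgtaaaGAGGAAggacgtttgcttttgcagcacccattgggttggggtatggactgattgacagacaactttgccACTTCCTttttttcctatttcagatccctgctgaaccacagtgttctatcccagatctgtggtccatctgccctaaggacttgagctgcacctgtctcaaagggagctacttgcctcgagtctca
Crybb1: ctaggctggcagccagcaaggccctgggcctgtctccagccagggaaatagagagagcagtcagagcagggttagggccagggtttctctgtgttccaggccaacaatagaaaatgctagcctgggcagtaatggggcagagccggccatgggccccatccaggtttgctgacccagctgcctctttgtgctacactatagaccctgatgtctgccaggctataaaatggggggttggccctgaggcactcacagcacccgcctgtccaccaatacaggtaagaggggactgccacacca
Rasal3: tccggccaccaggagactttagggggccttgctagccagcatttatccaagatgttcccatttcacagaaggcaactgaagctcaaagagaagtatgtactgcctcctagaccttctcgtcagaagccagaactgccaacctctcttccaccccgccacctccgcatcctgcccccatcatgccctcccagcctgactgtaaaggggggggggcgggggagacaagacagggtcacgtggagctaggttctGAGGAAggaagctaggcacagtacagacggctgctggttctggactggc
Ltc4s: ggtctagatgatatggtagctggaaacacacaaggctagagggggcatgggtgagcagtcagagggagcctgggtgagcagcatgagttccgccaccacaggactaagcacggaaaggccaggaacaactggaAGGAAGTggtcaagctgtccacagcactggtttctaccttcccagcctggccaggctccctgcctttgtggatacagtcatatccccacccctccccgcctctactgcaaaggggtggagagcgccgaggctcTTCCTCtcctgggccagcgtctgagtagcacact
GAGGAA occurred in 3 of the 8 genes with a window, Fcrls, Ltc4s and Rasal3, and in 28.3% of all 32851 mouse promoter windows. AGGAAGT occurred in Fcrls and Ltc4s and in 9.35% of all windows, and the 2 motifs can share bases. The AP-1 letters TGANTCA occurred in 1 of the 8, Adgrg1, which has them at 2 places in its second window, and in 7.81% of all windows. Fcrls and Rasal3, both lower in cKO forebrain, held GAGGAA, while Crybb1, also lower, held neither PU.1 motif and Ltc4s, which was not lower, held both. A match is a description of the letters in a window and not of a bound site.

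Of the 10 genes, 4 were lower in cKO forebrain: Fcrls, Selplg, Crybb1 and Rasal3. They fell to between 0.568 and 0.639 of the control level on the fitted scale, and none of the 10 was called higher by edgeR or by DESeq2, nor at an unadjusted p below 0.05. Among all 16956 genes tested, 0.277% were called lower at an adjusted p below 0.05 and 0.0531% were called higher. A negative log2 change was seen for 9 of the 10, against 49.4% of all genes, and the median log2 change was -0.38 against 0.0016 over all genes. Every cKO library lay below every control library for 4 of the 10, namely Fcrls, Selplg, Crybb1 and Olfml3, against 0.313% of all genes tested. For none of the 10 did every cKO library lie above every control library, against 0.13% of all genes. In whole tissue, fewer microglia and less RNA of a gene in each microglial cell cannot be told apart.

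**Figure D1:**
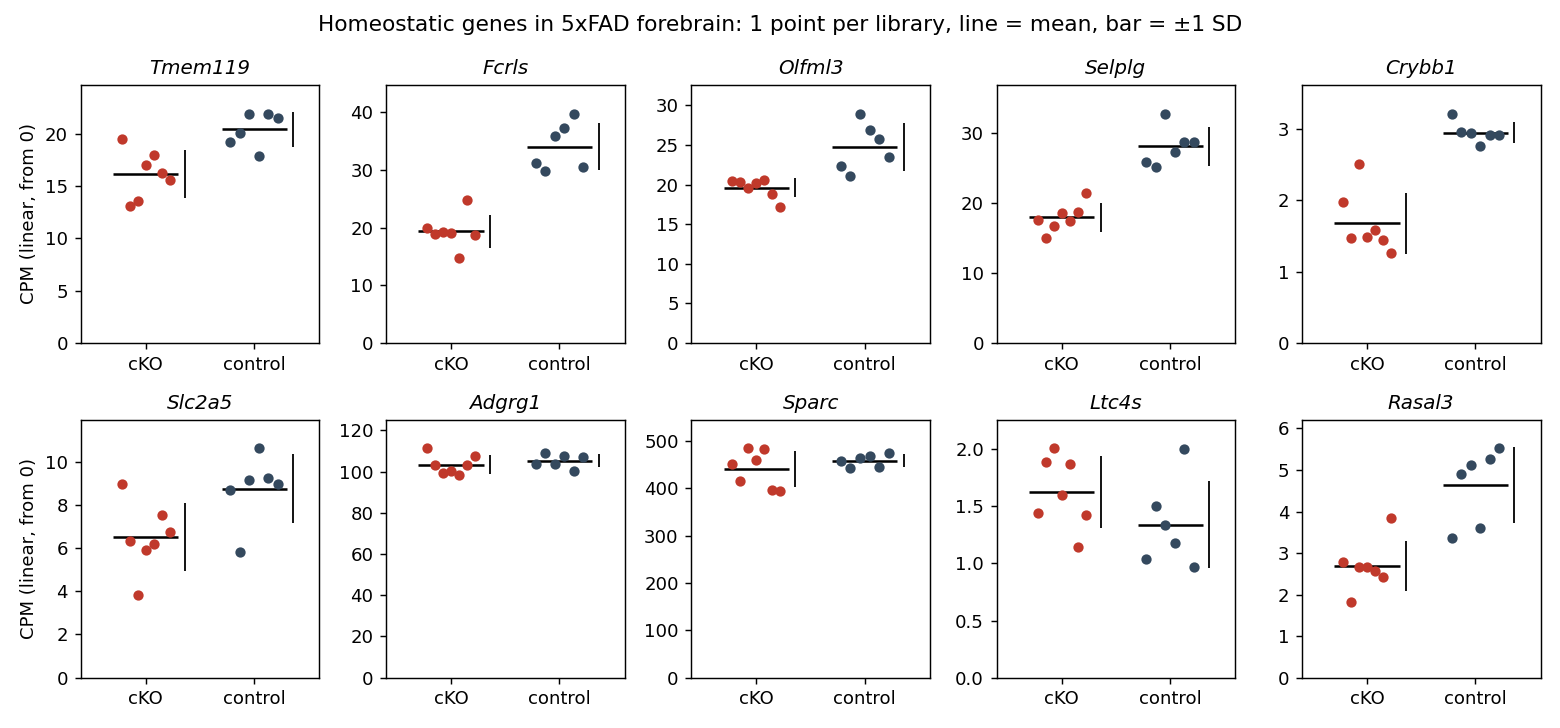
Level of each of the 10 genes in every forebrain library, as CPM on a linear axis from 0, with 7 cKO libraries to the left and 6 control libraries to the right. The line is the mean and the bar is 1 SD either way, and the points of Fcrls, Selplg, Crybb1 and Olfml3 do not overlap between genotypes.

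Among the surface proteins, Fcrls and Selplg fell in cKO forebrain. Fcrls encodes an Fc receptor-like scavenger receptor and lies on chromosome 3 (87250758 to 87263738, minus strand, GRCm38). Fcrls stood at 20, 19.0, 19.2, 19.0, 14.8, 24.7 and 18.7 CPM in cKO forebrain libraries 1 to 7. Control forebrain libraries 1 to 6 stood at 31.2, 29.8, 35.9, 37.4, 39.8 and 30.5 CPM. The highest cKO library lay under the lowest control library, so the genotypes did not overlap. Fcrls averaged 19.4 ± 2.91 CPM in cKO forebrain and 34.1 ± 4.16 CPM in control forebrain (SD, n = 7 and 6), a log2 change of -0.82 (SE 0.093, 95% interval -1.01 to -0.62, edgeR adjusted p = 3.75e-05). It was eighth of all genes tested when these were ordered by p.

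Selplg encodes PSGL-1, a mucin-like ligand of the selectins that leukocytes use to roll on endothelium, and lies on chromosome 5 (113818536 to 113832644, minus strand). Its levels in cKO forebrain libraries 1 to 7 were 17.5, 14.9, 16.7, 18.6, 17.4, 18.7 and 21.4 CPM. Control forebrain libraries 1 to 6 stood at 25.8, 25.1, 32.7, 27.2, 28.6 and 28.7 CPM. Again no cKO library reached the lowest control library. Selplg fell to 17.9 ± 2.01 CPM in cKO forebrain, against 28.0 ± 2.72 CPM in control forebrain (SD, n = 7 and 6), a log2 change of -0.65 (SE 0.079, 95% interval -0.81 to -0.48, edgeR adjusted p = 9.35e-05). Fcrls and Selplg passed the threshold in each of 13 fits that left out 1 library, with adjusted p from 5.41e-06 to 2.82e-04 for Fcrls and from 3.07e-05 to 5.87e-04 for Selplg.

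Tmem119, a transmembrane protein used to tell microglia from other macrophages by antibody, did not pass the threshold. It lies on chromosome 5 (113793729 to 113800516, minus strand), 18019 bases from Selplg and on the same strand. Tmem119 ranged from 13.1 to 19.5 CPM with a median of 16.3 in cKO forebrain, against 17.8 to 21.9 with a median of 20.8 in control forebrain. The ranges overlapped, although 5 of 7 cKO libraries were under the lowest control library and all 7 were under the control median. Its log2 change was -0.34 (SE 0.089, 95% interval -0.52 to -0.15, edgeR adjusted p = 0.201), and it crossed the threshold in 1 of the 13 fits with a library left out, without cKO library 1 (adjusted p = 0.0493).

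Slc2a5 encodes GLUT5, a fructose carrier (chromosome 4, 150119283 to 150144169, plus strand). It ranged from 3.84 to 8.94 CPM with a median of 6.31 in cKO forebrain, against 5.79 to 10.6 CPM with a median of 9.06 in control forebrain. All 7 cKO libraries were under the control median but only 1 was under the lowest control library. The log2 change was -0.42 (SE 0.15, 95% interval -0.74 to -0.11, edgeR adjusted p = 0.503), past the threshold in none of the 13 fits with a library left out.

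Adgrg1 encodes the adhesion G protein-coupled receptor also known as GPR56, which binds collagen III and transglutaminase 2 and is used by neural and oligodendrocyte precursors as well as by microglia (chromosome 8, 94974751 to 95014217, plus strand). It ranged from 98.6 to 111 CPM with a median of 103 in cKO forebrain, against 100.5 to 109 CPM with a median of 105.5 in control forebrain. The ranges lay almost on top of each other. The log2 change was -0.03 (SE 0.043, 95% interval -0.12 to 0.06, edgeR adjusted p = 0.899).

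Of the 2 genes with secreted products, neither passed the threshold. Olfml3 encodes an olfactomedin-like glycoprotein of the extracellular matrix (chromosome 3, 103722222 to 103738001, minus strand). It stood at 20.5, 20.4, 19.6, 20.2, 20.6, 18.8 and 17.2 CPM in cKO forebrain libraries 1 to 7. Control forebrain libraries 1 to 6 stood at 22.3, 21.1, 29.0, 26.9, 25.8 and 23.5 CPM. No cKO library overlapped the control libraries, but the gap between 20.6 CPM in the highest cKO library and 21.1 CPM in the lowest control library was narrow. The log2 change of -0.34 (SE 0.076, 95% interval -0.49 to -0.18) had an edgeR adjusted p of 0.0595 and so missed the threshold. Olfml3 did pass with DESeq2 (adjusted p = 0.00814), with a correction for GC content and length (0.0184) and with no filter on low counts (0.0211). It did not pass with edgeR on DESeq2 size factors or with a replicate block. With a library left out it passed in 2 of 13 fits, with edgeR adjusted p up to 0.227.

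Sparc encodes a matricellular protein that binds collagen and calcium and is also made by endothelial cells (chromosome 11, 55394500 to 55423183, minus strand). Sparc ranged from 395 to 485 CPM with a median of 451 in cKO forebrain, against 443 to 476 CPM with a median of 461 in control forebrain. Its cKO libraries were spread on both sides of the control range, 3 below it and 2 above it. The log2 change was -0.06 (SE 0.051, 95% interval -0.16 to 0.05, edgeR adjusted p = 0.798).

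Of the genes whose products stay inside the cell, Crybb1 and Rasal3 fell and Ltc4s did not pass the test. Crybb1 encodes beta-B1 crystallin, a structural protein best known from the lens (chromosome 5, 112255815 to 112269585, plus strand). Its counts were low, from 24 to 45 per cKO library and from 48 to 71 per control library. As CPM they were 1.98, 1.48, 2.51, 1.48, 1.58, 1.44 and 1.27 in cKO forebrain libraries 1 to 7. Control forebrain libraries 1 to 6 stood at 3.22, 2.95, 2.94, 2.75, 2.92 and 2.91 CPM. The control libraries were tightly grouped, and all cKO libraries lay under them. The gap was narrow, from 2.51 CPM (45 counts) in cKO library 3 to 2.75 CPM (61 counts) in control library 4. With counts this low, the tight grouping does not show that the level is stable. The log2 change was -0.81 (SE 0.16, 95% interval -1.15 to -0.47, edgeR adjusted p = 0.0261). It remained past the threshold in 4 of 13 fits with a library left out and was lost without control libraries 1, 2, 3, 5 or 6 or cKO libraries 2, 4, 6 or 7, with adjusted p up to 0.0707.

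Rasal3 encodes a Ras GTPase-activating protein of blood-lineage cells, which switches Ras off (chromosome 17, 32390659 to 32403583, minus strand). Rasal3 stood at 2.79, 1.83, 2.67, 2.66, 2.57, 2.43 and 3.85 CPM in cKO forebrain libraries 1 to 7. Control forebrain libraries 1 to 6 stood at 3.35, 4.90, 5.13, 3.61, 5.27 and 5.52 CPM. Of the cKO libraries 6 of 7 were under the lowest control library, and cKO library 7 was above 2 of the control libraries. The log2 change was -0.78 (SE 0.16, 95% interval -1.11 to -0.44, edgeR adjusted p = 0.0338). The call was kept in 5 of 13 fits with a library left out and was lost without control libraries 2, 3, 5 or 6 or cKO libraries 2, 3, 4 or 6, with adjusted p up to 0.116. A gene on the opposite strand, CT485616.1, overlaps Rasal3, and reads of both strands cannot be told apart without a stated strand setting. Under that name CT485616.1 was not among the genes of the bulk table, so its own level could not be read.

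Ltc4s encodes leukotriene C4 synthase, the membrane enzyme that joins glutathione to leukotriene A4 (chromosome 11, 50236461 to 50238616, minus strand). It was near the lower end of what the libraries could count, at 23 to 37 counts per cKO library and 16 to 35 per control library. Ltc4s ranged from 1.14 to 2.01 CPM with a median of 1.598 in cKO forebrain, against 0.971 to 2.00 CPM with a median of 1.25 in control forebrain, and the ranges overlapped. Its log2 change of 0.28 (SE 0.21, 95% interval -0.15 to 0.71, edgeR adjusted p = 0.773) had the widest interval of the 10. The antisense gene Gm26542 overlaps it and had 0 to 7 counts in cKO libraries and 1 to 9 in control libraries.

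As TPM, a level that divides by exon length so that genes can be compared, Sparc was the most abundant of the 10 in both genotypes, at 435 ± 31.3 in cKO forebrain and 455 ± 10.7 in control forebrain (SD, n = 7 and 6). In cKO forebrain it was followed by Adgrg1 (71.5 TPM), Fcrls (31.1), Tmem119 (26.1), Selplg (15.7), Olfml3 (11.9), Slc2a5 (7.17), Crybb1 (6.37), Ltc4s (5.98) and Rasal3 (2.05). The gaps between Fcrls and Tmem119, between Slc2a5 and Crybb1 and between Crybb1 and Ltc4s were smaller than the sum of the SDs of the neighbouring genes. In control forebrain the order was Sparc, Adgrg1 (72.9 TPM), Fcrls (54.8), Tmem119 (33.1), Selplg (24.6), Olfml3 (15.1), Crybb1 (11.2), Slc2a5 (9.63), Ltc4s (4.96) and Rasal3 (3.55). There the gaps within that limit were those between Crybb1 and Slc2a5 and between Ltc4s and Rasal3.

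Markers of microglia outside the list also fell in cKO forebrain. The summed level of 11 microglial markers, Cx3cr1 left out because its locus carries CreER in cKO mice, ran from 328 to 362 CPM with a median of 354 in cKO forebrain, against 504 to 633 CPM with a median of 534 in control forebrain. These ranges did not overlap, and 10 of the 11 markers were called lower. Summed markers of astrocytes stood at 2233 ± 77.1 CPM in cKO and 2275 ± 58.4 CPM in control forebrain, and those of endothelium at 236.5 ± 11.1 CPM in cKO and 241 ± 5.77 CPM in control forebrain (SD, n = 7 and 6). Mural cell markers stood at 236 ± 6.29 CPM in cKO and 242 ± 7.75 CPM in control forebrain, and border macrophage markers at 14.8 ± 0.723 CPM in cKO and 15.2 ± 1.19 CPM in control forebrain. No marker on these last 4 lists was called in either direction by edgeR or by DESeq2, and 3 markers had an unadjusted p below 0.05. Summed oligodendrocyte markers stood at 4310 ± 305 CPM in cKO and 4664 ± 121 CPM in control forebrain, and summed neutrophil markers at 1.46 ± 1.12 CPM in cKO and 2.91 ± 1.74 CPM in control forebrain, with none called either.

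The level of each gene was therefore also set against the microglial panel of the same library, as the log2 of its CPM over the summed panel CPM. On this scale the 4 genes called lower in cKO forebrain overlapped between genotypes. The mean difference, cKO minus control, was -0.17 for Fcrls, 0.0017 for Selplg, -0.20 for Crybb1 and -0.14 for Rasal3. Tmem119 (0.30), Olfml3 (0.32) and Slc2a5 (0.21) had positive differences and overlapped too. Adgrg1 (0.62), Sparc (0.59) and Ltc4s (0.95) were higher in every cKO library than in every control library, which held for 67.2% of all genes tested, while 0.0236% were lower in every cKO library. No test was run on this ratio, and the part that the microglial panel plays in the results above was not tested.

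**Figure D2:**
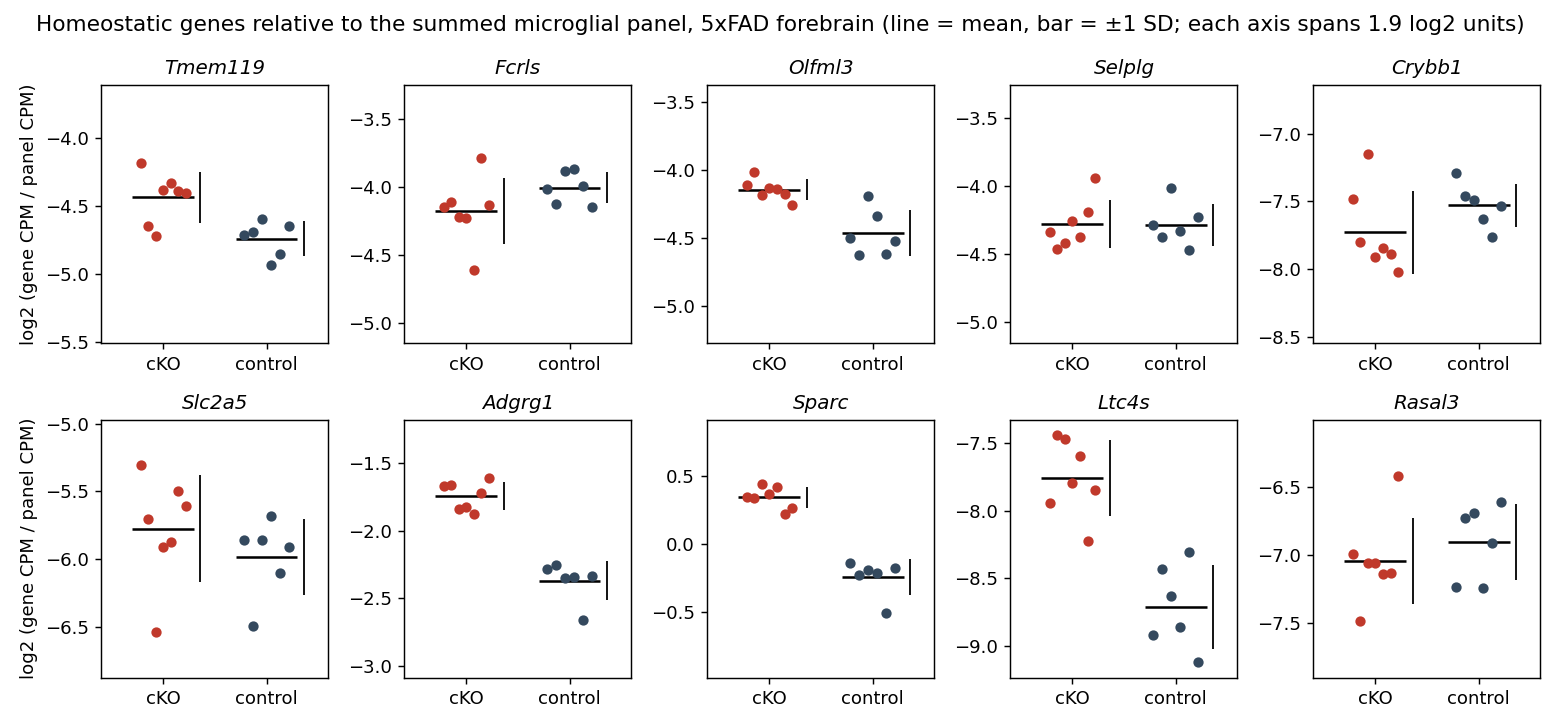
Log2 of each gene's CPM over the summed CPM of 11 microglial markers in the same forebrain library, cKO to the left and control to the right, with the mean as a line and 1 SD either way as a bar. Selplg lies at the same level in both genotypes, and Adgrg1, Sparc and Ltc4s are higher in all cKO libraries.

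The bulk level was also compared with that in sorted control microglia. In control samples, 12 microglial markers had a bulk CPM of 0.402% to 3.78% of their CPM in sorted microglia (median 0.973%). Tmem119 (1.43%), Fcrls (1.95%), Olfml3 (1.54%), Selplg (1.10%), Crybb1 (0.640%) and Slc2a5 (1.68%) lay within that range. Rasal3 was just over it at 3.82%, Sparc and Adgrg1 were far over it at 13.8% and 34.1%, and Ltc4s was under it at 0.189%. The libraries differ in chemistry and in the 5xFAD transgenes, and 1 assay counts reads along the transcript while the other counts 3' tags, so these shares are a description.

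Homeostatic genes outside the list of 10 fell in cKO forebrain as well. Of 24 further homeostatic genes tested, 10 were called lower and 0 higher by edgeR (12 and 0 by DESeq2, and 16 and 0 at an unadjusted p below 0.05), 23 had a negative log2 change, and the median was -0.29. Csf1r, P2ry12, Siglech and Gpr34 also belong to the 11 microglial markers. The called genes included the receptors Cx3cr1 (-1.37, at the CreER locus), Gpr34 (-0.70), Siglech (-0.63), Csf1r (-0.56), P2ry12 (-0.52) and the integrin subunit gene Itgb5 (-0.34). The enzyme gene Hpgds (-0.47), a prostaglandin D synthase, and the anion carrier gene Slco2b1 (-0.36) were also called. Nearest to the threshold without passing it were Tgfbr1 (-0.36, edgeR adjusted p = 0.0632), P2ry13 (-0.47, 0.0968), Entpd1 (-0.25, 0.317) and Cst3 (-0.20, 0.318).

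Partners and relatives of the 10 were listed by pathway or gene family. They cover leukotriene synthesis and receptors beside Ltc4s, selectins beside Selplg, hexose carriers beside Slc2a5, ligands of ADGRG1, relatives of Sparc, Olfml3 and Fcrls, and Ras GTPase-activating proteins. Of 40 such genes 33 were tested, and edgeR and DESeq2 both called 0 lower and 0 higher, with 3 at an unadjusted p below 0.05 in edgeR. Those 3 were Col3a1 (log2 change 0.29), Spock3 (-0.16) and Nf1 (-0.21). The median log2 change was 0.03, and the 3 selectin genes and the 3 Fc receptor-like genes were too low to test.

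Within genotypes the 4 genes called lower did not vary together closely from library to library. After centring each gene on its group mean over the 13 libraries, each one's Pearson correlation with the mean of the other 3 was 0.07 for Fcrls, 0.39 for Selplg, -0.26 for Crybb1 and 0.35 for Rasal3. Over the 45 pairs of the 10 genes the correlation ran from -0.48 to 0.73, the highest for Selplg with Rasal3, with a median of 0.06. The genes most like the mean centred profile of the 4 were Gm44644 (r = 0.905), Fam8a1 (0.903), Wdr12 (0.891), Me2 (0.882), Soat1 (0.877) and Kifap3 (0.867). None of these 6 was called. The points of each correlation share libraries and depth, and the 6 are the highest of all genes tested, so the values describe these 13 libraries. Counts per library were low for Crybb1 (24 to 71) and Rasal3 (36 to 96), and counting error pulls such correlations toward 0. Weak values therefore do not show that these genes vary apart.

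In sorted microglia without amyloid transgenes, 7 of the 10 genes were lower in the cKO library and 3 were higher, and none differed by 1.5-fold or more. That count became 1, Crybb1, with all cells that passed the filter, with all barcodes, with at least 1000 genes per cell, with median-ratio scaling and with cells thinned to 1000 UMIs. Among the 6744 genes with at least 20 CPM in either library, 1.35% were at least 1.5-fold lower, 1.79% at least 1.5-fold higher and 39.9% had a ratio below 1. The median log2 ratio of the 10 was -0.23, against 0.04 for all 6744 genes. Each genotype was 1 pooled library, so no test was possible, nothing checks these ratios against other mice, and the intervals given here cover counting error only. Microglia-like cells numbered 7486 in the cKO library, or 84.4% of cells kept, and 6224 in the control library, or 99.7% of cells kept.

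Each of 12 microglial markers was detected in at least 25% of the cells of all 7 clusters, the 2 clusters left out included, so this measure does not set the microglia-like clusters apart from those 2. In microglia-like cells the 11 markers without Cx3cr1 summed to 46750 CPM in the cKO and 49320 CPM in the control library. Some markers on the lists of other cells were detected as well. The 6 endothelial markers summed to 57.2 CPM in the cKO and 64.8 CPM in the control library, most of it Pecam1, at 50.2 CPM in the cKO and 55.4 CPM in the control library. The 5 oligodendrocyte markers summed to 117 CPM in the cKO and 116 CPM in the control library, mostly Mbp, Mag and Cnp, and the 4 B cell markers to 41.4 CPM in the cKO and 40.2 CPM in the control library, nearly all Cd79b. The endothelial marker Cldn5 had 0 UMIs in 7486 cKO and 6224 control cells, which allows a share of cells with a UMI of up to 0.0401% in the cKO and 0.0482% in the control library. The summed border macrophage markers stood at 14.8 CPM in the cKO and 5.83 CPM in the control library. Slc1a3, on the astrocyte list, was detected at 174 CPM in the cKO and 161 CPM in the control library.

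Crybb1 had the lowest ratio of the 10, at 311 CPM in the cKO library and 461 CPM in the control library, 1.48-fold lower (ratio 0.675, 95% interval 0.652 to 0.699). Selplg followed at 1995 CPM in the cKO and 2547 CPM in the control library (0.783, 0.772 to 0.795). Sparc, at 2781 CPM in the cKO and 3332 CPM in the control library (0.835, 0.824 to 0.846), was the most abundant of the 10 in both. Counted at the 3' end, where 1 UMI stands for 1 molecule whatever its length, Sparc was thus the highest in sorted cells as in whole forebrain.

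Tmem119 stood at 1203 CPM in the cKO and 1429 CPM in the control library (ratio 0.842, 0.826 to 0.859). Rasal3 stood at 102 CPM in the cKO and 121 CPM in the control library (0.845, 0.790 to 0.904). Olfml3 stood at 1394 CPM in the cKO and 1612 CPM in the control library (0.865, 0.849 to 0.881). Fcrls, which had the most negative change of the 10 in cKO forebrain, differed little here, at 1564 CPM in the cKO and 1750 CPM in the control library (0.893, 0.878 to 0.909).

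Adgrg1, Slc2a5 and Ltc4s had ratios above 1. Adgrg1 stood at 339 CPM in the cKO and 308.5 CPM in the control library (1.10, 1.06 to 1.15). Slc2a5 stood at 548 CPM in the cKO and 521.5 CPM in the control library (1.05, 1.02 to 1.09), and Ltc4s at 731 CPM in the cKO and 708 CPM in the control library (1.03, 1.00 to 1.06). For Slc2a5 and Ltc4s the interval took in 1 once the libraries were scaled by the median ratio of all genes, and the ratio of Ltc4s was then 1.00. With cells thinned to 1000 UMIs it took in 1 for all 3, Adgrg1 included (1.05, 0.990 to 1.12). Of the 24 other homeostatic genes 16 were lower in the cKO library, 2 of them by at least 1.5-fold, among them Cx3cr1 (0.527, 0.521 to 0.532), and their median log2 ratio was -0.05.

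**Figure D3:**
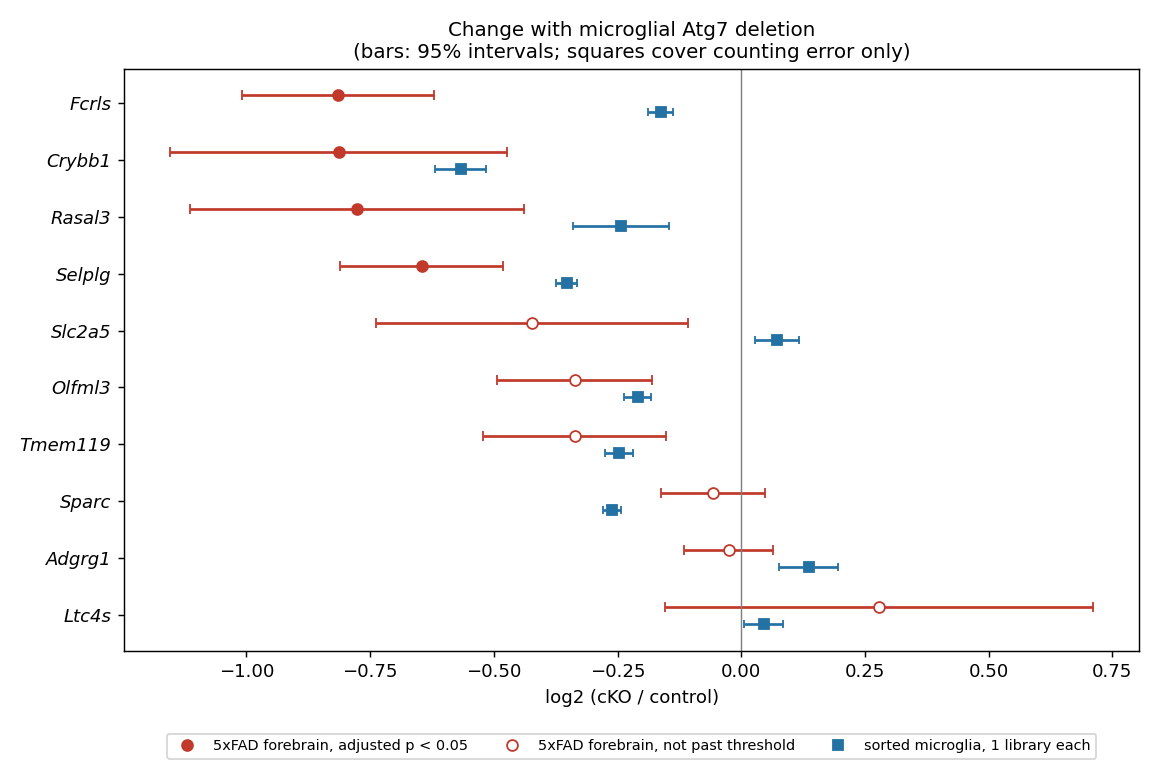
Log2 ratio of cKO over control for each gene, ordered by the forebrain value, in 5xFAD forebrain (circles, 7 cKO and 6 control libraries, 95% interval of the edgeR fit, filled when past the adjusted p of 0.05) and in sorted microglia without 5xFAD (squares, 1 library each, 95% counting interval). Fcrls, Rasal3 and Selplg lie further below 0 in forebrain than in sorted cells, and Sparc lies further below 0 in sorted cells. Slc2a5 and Adgrg1 lie below 0 in forebrain and above 0 in sorted cells.

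Set side by side, the log2 values in 5xFAD forebrain and in sorted microglia were -0.82 and -0.16 for Fcrls, -0.65 and -0.35 for Selplg, -0.81 and -0.57 for Crybb1 and -0.78 and -0.24 for Rasal3. Tmem119 (-0.34 and -0.25) and Olfml3 (-0.34 and -0.21) were closer between the assays. Slc2a5 had opposite signs, at -0.42 in forebrain and 0.07 in sorted microglia. So did Adgrg1, at -0.03 in forebrain and 0.14 in sorted microglia, and neither gene passed the threshold in forebrain. Sparc was at -0.06 in forebrain and -0.26 in sorted microglia, and Ltc4s at 0.28 in forebrain and 0.05 in sorted microglia. The difference between the assays was not tested, since the single-cell side has no replicates and its mice lack the 5xFAD transgenes.

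Most cells of each genotype fell into a different cluster, so the comparison was repeated within clusters. Cluster 0, led by Lyz2, Tnfaip2, Blvrb and Apoe, held 7017 cKO cells (79.1% of those kept) and 295 control cells (4.73%). Cluster 1, led by Fos, Calr, Fosb and Egr1, held 205 cKO cells (2.31%) and 5858 control cells (93.8%). Compared with the ratio over all microglia-like cells, the ratio was higher for 9 of the 10 genes within cluster 0, against 43.5% of all genes, and for all 10 within cluster 1, against 37.8% of all genes. The median log2 ratio of the 10 was -0.11 in cluster 0 and 0.04 in cluster 1, against -0.05 for all genes in each cluster. With so few cells of 1 library in each, and clusters that nearly follow the libraries, cell state and library cannot be told apart. The clusters were formed on expression of these same cells, and the 10 genes were not set aside. Likeness between libraries within a cluster is thus in part built in, and these ratios are a description.

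Crybb1 had a ratio below 1 within both clusters, at 310 CPM in the cKO and 352 CPM in the control library in cluster 0 (0.881, 0.770 to 1.01) and 404 CPM in the cKO and 471 CPM in the control library in cluster 1 (0.858, 0.749 to 0.978). Tmem119 had ratios of 0.980 and 0.981 in clusters 0 and 1, with both intervals taking in 1. Selplg had 0.846 (0.803 to 0.892) in cluster 0 and 0.971 (0.920 to 1.02) in cluster 1, and Olfml3 had 0.872 (0.819 to 0.929) and 1.01 (0.943 to 1.08). Fcrls had 0.956 (0.899 to 1.02) in cluster 0 and 1.07 (1.01 to 1.14), above 1, in cluster 1.

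Sparc had 0.903 (0.863 to 0.945) in cluster 0 and 1.06 (1.01 to 1.10) in cluster 1. Slc2a5 (1.22 and 1.26), Ltc4s (1.25 and 1.19) and Adgrg1 (1.16 and 1.19) were higher in the cKO library within both clusters, with intervals above 1. Rasal3 had the fewest UMIs, with 89 in the control cells of cluster 0 and 65 in the cKO cells of cluster 1, and ratios of 0.713 (0.578 to 0.890) and 0.922 (0.706 to 1.19).

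**Figure D4:**
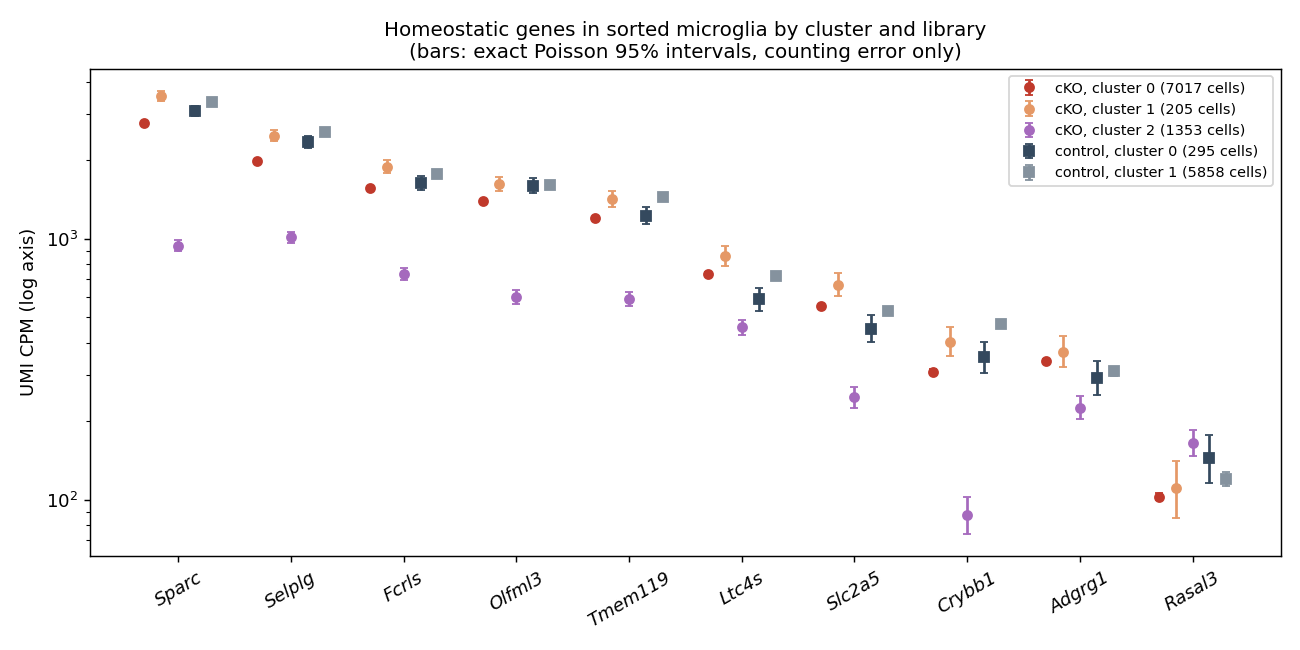
CPM of the 10 genes on a log axis in sorted microglia, by cluster and library, ordered by the level in the control library, with exact Poisson 95% intervals. On the log axis clusters 0 and 1 of both libraries lie near each other, but some intervals are apart. Crybb1, for example, stood at 310 CPM in cKO cluster 0 and 471 CPM in control cluster 1. The low-UMI cluster 2, nearly all cKO, is lower for every gene but Rasal3, and the share of all genes lower there was not computed.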

How the data were processed

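The authors deposited bulk values as read counts per gene without normalization. The submitters' processing notes name HISAT2 2.0.5, featureCounts 1.5.0-p3 and mm10, and the labels' protocols describe poly-A selection. The strand setting is not given in the sources used here. The authors deposited single-cell values as UMI counts, and per the file headers Cell Ranger 6.1.0 made them.

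edgeR 4.0.16 in R 4.3.3 was used for bulk counts (filterByExpr, TMM, robust quasi-likelihood fit with genotype as the only term). Tests were two-sided, and p-values were adjusted by Benjamini-Hochberg across 16956 genes at a threshold of 0.05. The common biological variation (BCV) came to 10.0%. Chi-square per degree of freedom was at least 2.72 between libraries of a group, so no library repeated another. Log2 CPM in the correlations used a prior count of 2. The procedure was tested on simulated data.

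Barcodes with 500 or more genes and no more than 10% mitochondrial UMIs were used, 8874 of 9840 cKO and 6243 of 6633 control. They were clustered with scanpy 1.11.5 in Python 3.11.15 (2000 variable genes, 30 components, 15 neighbours, resolution 0.5). No doublet caller was run. A low-UMI cluster stayed unnamed and was left out, and so was one led by the choroid plexus genes Ttr and Enpp2, by a choice made after the clusters were seen. UMIs were summed per library, with exact 95% intervals.

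The 10 genes, the pathway lists and the markers were chosen with earlier results of these data known. Named genes are the 10, the other homeostatic genes past the threshold with up to 4 nearest to it, partner genes where a sentence concerns them, and the 6 genes most like the called ones. Some genes that this rule names are counted but not reported here by name. Alternatives were other scaling, no filter, DESeq2 1.42.0, a replicate block, a GC and length correction, each library left out, other cell filters, thinning to 1000 UMIs and single clusters. Gene positions are from GENCODE M21 on GRCm38, which is mm10.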

Additional observations from a re-analysis of the deposited data

How the results depend on the processing

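In forebrain, leaving out 1 library at a time gave 30 to 50 genes called lower (47 with all libraries), 3 to 23 called higher (9), 2 to 5 of the 10 genes lower (4), 7 to 10 of the other homeostatic genes lower (10) and a median log2 change of the 10 between -0.45 and -0.33 (-0.38). Without cKO library 1 the genes called higher numbered 23, and without control libraries 3 or 4 or cKO library 7 they numbered 3. Genes called higher numbered 23 with no count filter and 19 with DESeq2, where 5 of the 10 genes were called lower.

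Replicate numbers showed no clear pairing of the samples. Correlations of same-numbered libraries were 0.16, 0.0070, -0.06, 0.11, -0.26 and 0.10, and 1 of 6 cKO libraries correlated best with its own number. So few values cannot settle whether the samples were paired. With the number as a replicate block, 21 genes were lower, 1 higher, 2 of the 10 genes (Fcrls and Selplg) and 4 other homeostatic genes lower. Crybb1 then had a log2 change of -0.77 (edgeR adjusted p = 0.189) and Rasal3 of -0.87 (0.0954).

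In sorted microglia 1 of the 10 genes, Crybb1, was past 1.5-fold with all cells kept, with all barcodes (ratio 0.654), with at least 1000 genes per cell, with median-ratio scaling and with cells thinned to 1000 UMIs (0.664). The median log2 ratio was -0.27 with median-ratio scaling, -0.11 within cluster 0 and 0.045 within cluster 1, where it reversed, as did Fcrls (1.07) and Sparc (1.06). The cause was not tested. Crybb1, Rasal3 and Ltc4s had the fewest bulk counts of the 10, and depth limits their precision.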

Other observations

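A cluster of low-UMI cells, led by Gm26917, Dst and Gm42418 and left unnamed, held 1353 cKO cells (15.2% of those kept) and 4 control cells (0.0641%), with a median UMI count of 0.249 times that of their own library. In these cKO cells 9 of the 10 genes were lower than in the cKO cells of cluster 0. The share of all genes that were lower there was not computed, so this count does not set the 10 apart. Crybb1 stood at 87.3 CPM in the low-UMI cells and 310 CPM in cluster 0, and Sparc at 941 CPM in the low-UMI cells and 2783 CPM in cluster 0. Fcrls stood at 733 CPM in the low-UMI cells and 1563 CPM in cluster 0, and Selplg at 1014 CPM in the low-UMI cells and 1993 CPM in cluster 0. Rasal3 was the exception, at 165 CPM (95% counting interval 147 to 186) in the low-UMI cells and 103 CPM (99.7 to 106) in cluster 0. All cells in this contrast come from 1 library and were grouped on their own expression, so these levels are a description.

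Of the 40 listed partners and relatives of the 10, 18 reached 20 CPM in either library of sorted microglia, of which 8 were lower and 10 higher in the cKO library. Of these 18, 1 was past 1.5-fold, upwards, as were 1.79% of all genes at that level: Rasa4, a Ras GTPase-activating protein gene, at 112 CPM in the cKO and 72.8 CPM in the control library (ratio 1.54, counting interval 1.42 to 1.68). Alox5ap, which hands arachidonic acid to the enzyme that opens the leukotriene pathway upstream of Ltc4s, stood at 393 CPM in the cKO and 492 CPM in the control library (0.798, 0.772 to 0.825). The other leukotriene genes at that level were Cysltr1 (ratio 0.979, 0.918 to 1.04), Alox5 (1.30, 1.12 to 1.52), Lta4h (1.30, 1.13 to 1.51), Ggt5 (1.14, 1.02 to 1.27) and Mgst3 (1.45, 1.22 to 1.75), and the median log2 ratio of the 6 was 0.28. In forebrain the log2 changes were 0.02 for Rasa4 and 0.17 for Alox5ap, neither past the threshold.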
